A study of Mus musculus with 11 samples.

Results

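Expression of a small group of genes linked to wounded and fetal-like intestinal epithelium was examined in the rectal mucosa of 11 mice, with 1 Affymetrix Mouse Gene 1.0 ST array per mouse. The group was fixed by name as Plet1, Sprr1a, Sprr2h, Anxa1, Ly6a and Clu, each taken as the transcript cluster (the array's unit for 1 gene) whose annotation names that gene alone. Of these 6 genes, 5 were found, each with 1 transcript cluster, among 19944 genes tested, and Ly6a was not analysed here. Mutant mice (α6ΔIEC-TAM), in which tamoxifen is meant to delete the integrin gene Itga6 in intestinal epithelial cells, were given tamoxifen (n = 4) or NaCl, its vehicle (n = 4), and wild-type control mice were given tamoxifen (n = 3). Gavage began at 8 weeks of age, with 2 doses of tamoxifen at 10 mg per day, on alternate days over 5 days, and all mice were 10 weeks old when analysed, 15 days after the first gavage. Males made up 1 of 4 mice in each mutant group and 2 of 3 control mice. The labels used here state neither strain nor litter nor what drives the recombinase.

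When the intestinal epithelium is breached, the cells that cover the gap leave the usual absorptive programme for a time and take up genes that are otherwise typical of the fetal gut. Ly6a (Sca-1) and Anxa1 are widely used to mark this state in the mouse, Clu marks rare crypt cells that appear after injury, and small proline-rich (Sprr) genes and Plet1 are reported in repairing epithelium. None of these genes belongs to repair alone. Sprr1a, Anxa1 and Plet1 are also made by stratified squamous epithelium such as that of the anal canal, Anxa1 by leukocytes, and Clu by follicular dendritic and stromal cells.

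Values are given as log2 levels, and a log2 difference of 1 is 1 doubling. Array medians lay between 7.29 and 7.35, and 4 of 4 sex genes separated the arrays by the labelled sex. Itga6, the gene meant to be deleted, did not follow its label. It read 11.75 to 11.93 in the arrays labelled mutant tamoxifen, against 11.28 to 11.49 in mutant NaCl and 11.15 to 11.52 in control tamoxifen arrays (limma, log2 difference from the control arrays 0.42, SE 0.0957, adjusted p = 0.00949). The position of its probes relative to the deletion is not given in the sources used here, so Itga6 cannot serve as a check, and mutant tamoxifen stands throughout for the arrays labelled mutant tamoxifen. Markers of squamous epithelium varied widely between arrays. The mean level of 20 squamous markers, such as Krt5 and Krt13, was 8.52 to 10.15 in mutant tamoxifen, 8.94 to 10.02 in mutant NaCl and 7.16, 10.15 and 8.04 in the control arrays. In a bulk sample, fewer cells of a type and less RNA per cell cannot be told apart.

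In mutant mice given tamoxifen, 4 of the 5 genes rose relative to wild-type mice given the same drug. Plet1 rose 6.15-fold, Sprr1a 4.61-fold, Sprr2h 2.5-fold and Anxa1 1.91-fold, and Clu did not pass the test. For these 4 genes every mutant tamoxifen array lay above every control array. Across all genes tested 12.9% rose and 24.6% passed in either direction, and in 17.3% all mutant tamoxifen arrays lay above all control arrays. Tests are from 1 limma model over all arrays with a term for sex, adjusted by Benjamini-Hochberg over all genes, with a threshold of 0.05.

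**Figure D1:**
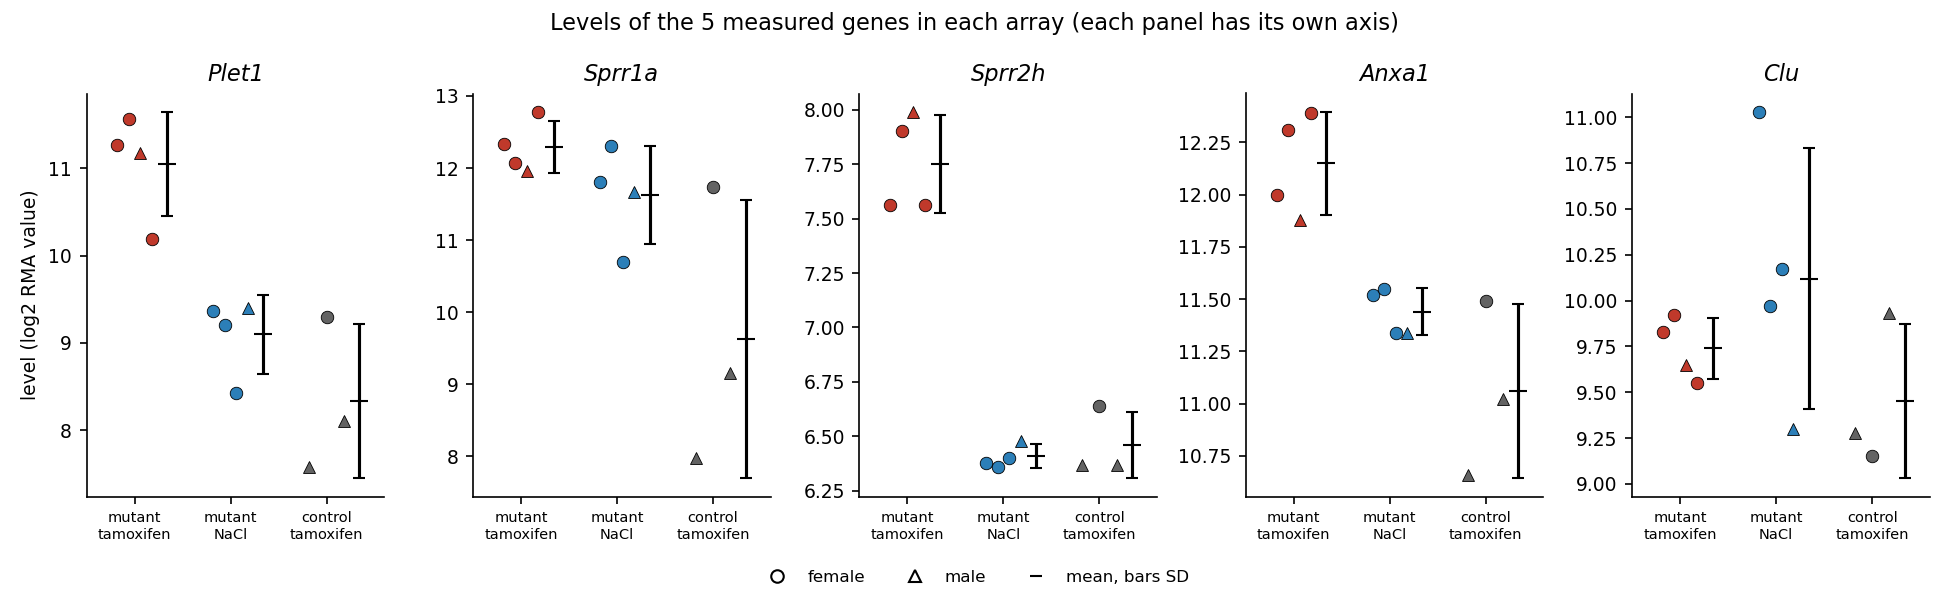
Log2 RMA level (y axis, 1 scale per panel) of Plet1, Sprr1a, Sprr2h, Anxa1 and Clu in every array, by group on the x axis, with circles for females, triangles for males and bars for mean and SD. Mutant tamoxifen arrays stand clear of both other groups for Plet1, Sprr2h and Anxa1, while Sprr1a spans 7.97 to 11.74 in the control arrays and Clu overlaps in all groups.

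Plet1 encodes a cell surface protein first described in placenta and found in hair follicle and colon epithelium of the mouse. Its levels were 11.27, 11.56, 11.18 and 10.19 in mutant tamoxifen, against 7.58, 9.30 and 8.10 in control tamoxifen. The lowest mutant tamoxifen array was still above the highest control array, and the control arrays themselves ranged over 1.72. The group means were 11.05 ± 0.597 (SD, n = 4) in mutant tamoxifen and 8.33 ± 0.884 (SD, n = 3) in control tamoxifen. The fitted difference was 2.62 (limma, SE 0.443, 95% interval 1.64 to 3.60, adjusted p = 0.00229). With control arrays 1 and 3 left out together, a step chosen after the values were seen, the 1 remaining control array gave a difference of 1.68 that was not past the threshold (limma, adjusted p = 0.0729), as did female arrays alone, also with 1 control array, at 1.71 (adjusted p = 0.0935). Without control array 2 the difference was 3.43 and without control array 1 it was 2.33, both past the threshold (limma, adjusted p = 0.002 and 0.00685).

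The Sprr genes encode small proline-rich proteins that are crosslinked into the cornified envelope of squamous cells. Sprr1a read 12.33, 12.07, 11.96 and 12.78 in mutant tamoxifen, against 7.97, 11.74 and 9.16 in control tamoxifen. The control arrays were thus spread over 3.77, and the female control mouse, at 11.74, lay just below the lowest mutant tamoxifen array. The difference was 2.21 (limma, SE 0.642, 95% interval 0.79 to 3.62, adjusted p = 0.0295). The call was lost without mutant tamoxifen array 3 (1.80, adjusted p = 0.161) or 4 (2.15, adjusted p = 0.0512), and without control array 1 (1.64, adjusted p = 0.0722) or 3 (2.16, adjusted p = 0.0598). Without control array 2 it was 3.59 (adjusted p = 0.00338), and in female arrays alone, with 1 control array, it was 0.66 (limma, adjusted p = 0.50).

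Sprr2h behaved with much less spread. It read 7.56, 7.90, 7.99 and 7.56 in mutant tamoxifen, against 6.37, 6.64 and 6.37 in control tamoxifen. The gap between the groups was wider than the range within either of them. The difference was 1.32 (limma, SE 0.12, 95% interval 1.06 to 1.59, adjusted p = 0.000106). Sprr2 genes are closely similar copies, and how far probes of Sprr2h also read neighbouring copies was not tested. Among those copies, all named here after their values were seen, Sprr2b and Sprr2k rose, by 0.67 and 0.27 (limma, adjusted p = 0.000276 and 0.00204). Sprr2d and Sprr2i had differences of 0.74 and 0.21, which did not pass (limma, adjusted p = 0.205 and 0.0516). Sprr2e, Sprr2f and Sprr2g had differences of -0.07, 0.08 and 0.11. None of these passed (limma, adjusted p = 0.335, 0.64 and 0.0778), and their group means were low, between 5.04 and 5.62.

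Anxa1 encodes annexin A1, a calcium-dependent phospholipid-binding protein that is released after injury and acts on formyl peptide receptors. Its levels were 12.00, 12.31, 11.88 and 12.39 in mutant tamoxifen, against 10.66, 11.49 and 11.02 in control tamoxifen. All mutant tamoxifen arrays were above all control arrays, with the smallest gap to the female control mouse. The difference was 0.93 (limma, SE 0.135, 95% interval 0.64 to 1.23, adjusted p = 0.00112).

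Clu encodes clusterin, a secreted chaperone. It read 9.83, 9.92, 9.65 and 9.55 in mutant tamoxifen, against 9.28, 9.15 and 9.93 in control tamoxifen. One control array read above all mutant tamoxifen arrays, so the groups overlapped. The difference of 0.17 had a 95% interval of -0.58 to 0.91 (limma, SE 0.337, adjusted p = 0.757), which leaves room for a change in either direction, and without control array 2 it was -0.32 (limma, adjusted p = 0.616).

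The 250 bases before the annotated start of the 4 genes that rose against control tamoxifen are shown with matches to short elements marked. Sequences are from RefSeq (GRCm38.p6), 5′ to 3′ on the gene's strand, and 4 of the 5 genes had an entry. Capitals mark matches on either strand to TGANTCA (the AP-1 element), GGAATG (the TEAD element) or TATAAA (the TATA box), which do not overlap here.
Plet1 (chr9:50494275-50494524, plus strand): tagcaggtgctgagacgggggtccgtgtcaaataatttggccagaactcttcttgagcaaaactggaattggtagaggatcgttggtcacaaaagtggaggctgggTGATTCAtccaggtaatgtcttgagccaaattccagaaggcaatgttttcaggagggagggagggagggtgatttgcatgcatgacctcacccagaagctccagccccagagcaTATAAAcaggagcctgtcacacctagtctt
Sprr1a (chr3:92485882-92486131, minus strand): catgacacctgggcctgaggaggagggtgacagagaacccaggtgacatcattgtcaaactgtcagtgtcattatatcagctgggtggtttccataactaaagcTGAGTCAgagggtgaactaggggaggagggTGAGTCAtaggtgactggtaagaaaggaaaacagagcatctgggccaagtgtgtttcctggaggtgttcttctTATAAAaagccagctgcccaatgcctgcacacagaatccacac
Sprr2h (chr3:92385435-92385684, plus strand): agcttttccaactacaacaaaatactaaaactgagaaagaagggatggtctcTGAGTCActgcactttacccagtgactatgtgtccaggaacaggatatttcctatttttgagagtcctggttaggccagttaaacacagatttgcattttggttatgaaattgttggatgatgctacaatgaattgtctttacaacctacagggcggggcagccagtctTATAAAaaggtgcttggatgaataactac
Anxa1 (chr19:20390672-20390921, minus strand): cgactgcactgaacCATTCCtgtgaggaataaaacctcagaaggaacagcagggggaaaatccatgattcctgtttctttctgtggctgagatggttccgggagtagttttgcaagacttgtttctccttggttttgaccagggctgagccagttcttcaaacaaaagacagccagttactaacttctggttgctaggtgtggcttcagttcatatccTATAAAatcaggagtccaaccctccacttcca
TATAAA occurred in 4 of the 4 windows, beginning 30 bases before the start in Plet1, 43 in Sprr1a, 29 in Sprr2h and 32 in Anxa1, and in 12.4% of 32851 windows of the same length. TGANTCA occurred in 3 of the 4, once in Plet1 (144 bases before the start) and Sprr2h (198) and at 146 and 116 bases in Sprr1a, and in 6.75% of all windows. The base at N was G in Sprr1a and Sprr2h but T in Plet1, which thus lacks the usual AP-1 form. The share of 6.75% is for any base at N. GGAATG occurred in Anxa1, on the other strand at 236 bases, and in 12.6% of all windows. A match describes these letters and is not evidence of binding. The shares over all windows are given as background, and enrichment was not tested.

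The second comparison holds the mutant genotype fixed and sets tamoxifen against NaCl. Plet1, Sprr2h and Anxa1 rose here as well, and Sprr1a and Clu did not pass, so 3 of the 5 genes rose where 12.5% of all genes did (23.2% passed in either direction). In the same 3 genes all mutant tamoxifen arrays lay above all mutant NaCl arrays, as in 14.2% of all genes. This comparison uses the same mutant tamoxifen arrays as the one before it. Plet1 levels of 10.19 to 11.56 in mutant tamoxifen stood against 9.37, 9.20, 8.43 and 9.40 in mutant NaCl (difference 1.95, 3.86-fold, limma, SE 0.385, adjusted p = 0.00483). Sprr2h levels of 7.56 to 7.99 in mutant tamoxifen stood against 6.38, 6.36, 6.40 and 6.48 in mutant NaCl (difference 1.35, 2.55-fold, limma, SE 0.104, adjusted p = 2.92e-05). The mutant NaCl arrays were tight for Sprr2h, with a range of 0.13. Anxa1 levels of 11.88 to 12.39 in mutant tamoxifen stood against 11.52, 11.55, 11.34 and 11.34 in mutant NaCl (difference 0.71, 1.64-fold, limma, SE 0.117, adjusted p = 0.00198).

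Sprr1a gave a different result against NaCl. Its 4 mutant NaCl arrays read 11.80, 12.31, 10.69 and 11.67, beside 11.96 to 12.78 in mutant tamoxifen. The second mutant NaCl array lay inside the mutant tamoxifen range, and the difference of 0.67 did not pass (limma, SE 0.557, 95% interval -0.56 to 1.90, adjusted p = 0.45). Clu read 11.03, 9.97, 10.17 and 9.30 in mutant NaCl, beside 9.55 to 9.92 in mutant tamoxifen. One NaCl array was high and another low, and the difference of -0.38 did not pass (limma, SE 0.293, 95% interval -1.03 to 0.27, adjusted p = 0.407).

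**Figure D2:**
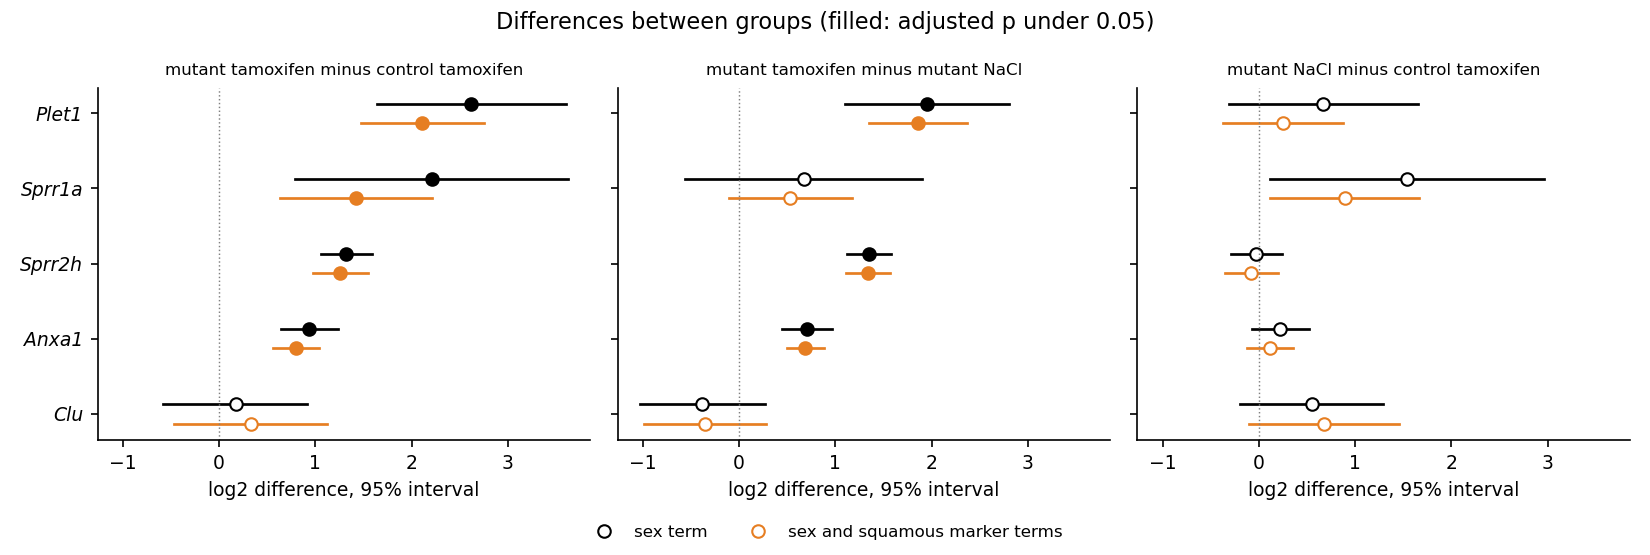
Log2 difference with its 95% interval (x axis) of each gene (rows) in the 3 comparisons, fitted with a sex term (black) and with sex and squamous marker terms (orange), filled where adjusted p is under 0.05. Plet1, Sprr2h and Anxa1 are filled in both comparisons with mutant tamoxifen, Sprr1a only against control tamoxifen, and no gene is filled for mutant NaCl against control tamoxifen.

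Mutant NaCl and control tamoxifen mice differ in both genotype and drug. None of the 5 genes passed between them, and 0 of all genes did (limma, 0%), with 8.15% at an unadjusted p under 0.05, and 0 to 3 genes passed over the other settings tried. Over all arrays Sprr1a had the largest estimate, at 1.54 (limma, SE 0.642, 95% interval 0.12 to 2.96, adjusted p = 0.60), followed by Plet1 at 0.67 (95% interval -0.31 to 1.65, adjusted p = 0.714) and Clu at 0.55 (95% interval -0.20 to 1.29, adjusted p = 0.698). Anxa1 differed by 0.22 (95% interval -0.07 to 0.52, adjusted p = 0.692) and Sprr2h by -0.03 (95% interval -0.29 to 0.24, adjusted p = 0.972). These estimates moved widely when 1 array was left out, over 0.83 to 2.92 for Sprr1a, 0.28 to 1.48 for Plet1 and 0.06 to 1.04 for Clu. The highest values of Sprr1a and Plet1 and the lowest of Clu came without control array 2, the lowest of Sprr1a and Plet1 and the highest of Clu without mutant NaCl array 4. In female arrays, with 1 control array, Clu had the largest estimate, 1.24, and Sprr1a -0.14. By group mean, Plet1, Sprr1a and Anxa1 were ordered mutant tamoxifen, mutant NaCl, control tamoxifen. The step between mutant tamoxifen and mutant NaCl passed the test for Plet1 and Anxa1, and the step between mutant NaCl and control tamoxifen passed for none of the 3. For Clu no neighbours in the order mutant NaCl, mutant tamoxifen, control tamoxifen passed the test.

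Sex was spread unevenly over the groups, so its term is given as male minus female. None of the 5 genes passed, beside 0.0351% of all genes. Anxa1 had a log2 difference of -0.37 (limma, SE 0.113, 95% interval -0.62 to -0.12, unadjusted p = 0.0076, adjusted p = 0.538) and Sprr1a of -1.10 (SE 0.535, 95% interval -2.29 to 0.08, adjusted p = 0.84). Clu differed by -0.28 (95% interval -0.90 to 0.35), Plet1 by -0.25 (95% interval -1.07 to 0.57) and Sprr2h by 0.07 (95% interval -0.16 to 0.29). Both control males had the lowest squamous marker means of all arrays, 7.16 and 8.04. With the squamous marker term the male minus female value was -0.06 for Anxa1, 0.92 for Plet1 and 0.70 for Sprr1a. It was -0.64 for Clu and 0.20 for Sprr2h, and none of the 5 passed (limma, adjusted p = 0.999 for each).

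Levels of Sprr1a went with the squamous markers of the same mice. The control arrays with the lowest marker means, 7.16 and 8.04, had the lowest Sprr1a levels, 7.97 and 9.16, and the control array with a marker mean of 10.15 had 11.74. The third mutant tamoxifen array stood apart from this pattern. Its marker mean was 8.52 and its Sprr1a level 11.96, whereas the third mutant NaCl array, with a marker mean of 8.94, read 10.69. The same mutant tamoxifen array had the highest Sprr2h level of all, 7.99, and Plet1 at 11.18. Most squamous markers did not themselves pass in mutant tamoxifen against control tamoxifen: 2 of 20 rose and 0 fell. Across all genes 12.9% rose and 11.8% fell. The 2 that rose, Sfn (difference 1.19) and Serpinb5 (0.63), are part of the marker mean. The median difference of the 20 was 0.43 beside -0.02 over all genes.

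**Figure D3:**
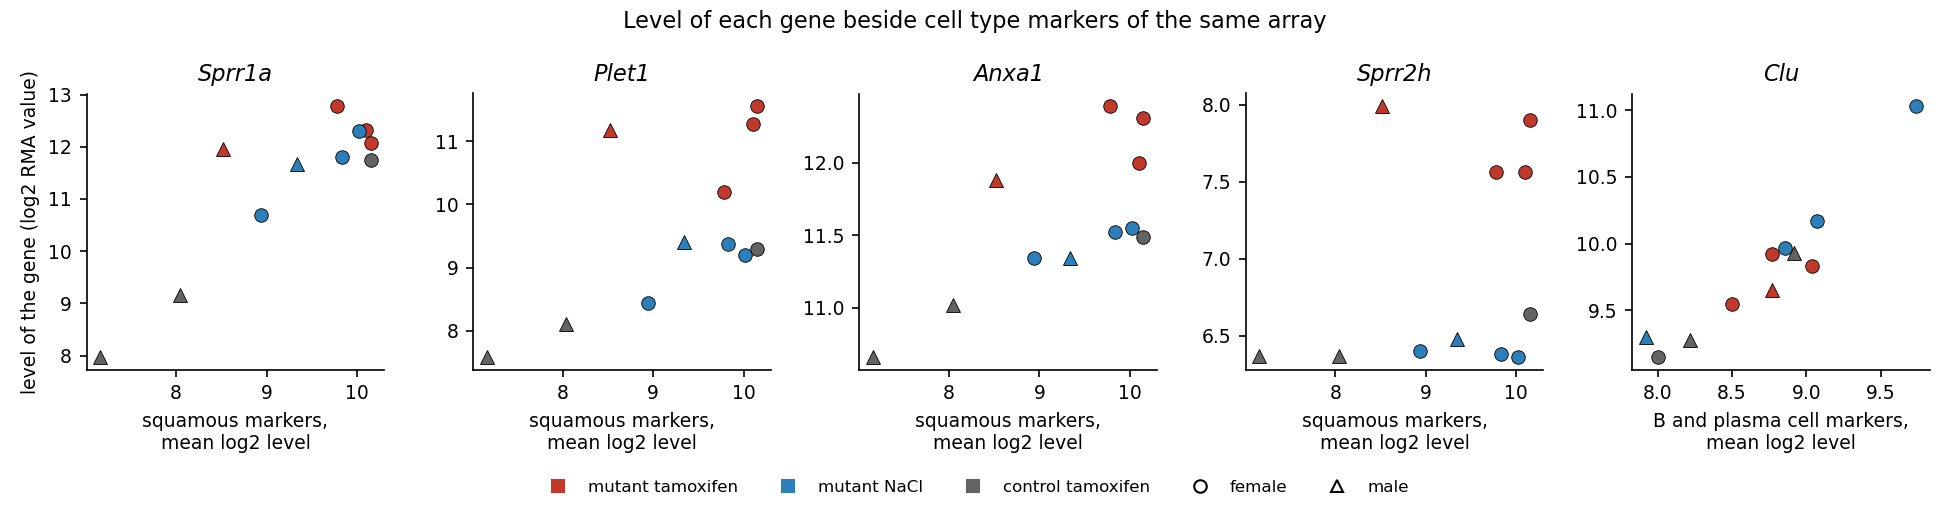
Log2 level of each gene (y axis) beside the mean log2 level of cell type markers in the same array (x axis), squamous markers for Sprr1a, Plet1, Anxa1 and Sprr2h and B and plasma cell markers for Clu. At like marker levels the mutant tamoxifen arrays read higher than the others for Plet1, Anxa1 and Sprr2h, with the third mutant tamoxifen array at a squamous mean of 8.52, and Clu climbs with the B and plasma cell markers up to the mutant NaCl array at 11.03.

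With the mean squamous marker level added to the model, the 4 genes that rose against control tamoxifen still passed, where 10.5% of all genes rose and 18.9% passed in either direction. The difference became 2.11 for Plet1 (limma, SE 0.286, adjusted p = 0.00166), 1.42 for Sprr1a (SE 0.354, adjusted p = 0.0215), 1.26 for Sprr2h (SE 0.127, adjusted p = 0.000393) and 0.80 for Anxa1 (SE 0.108, adjusted p = 0.00163). Per unit of the marker mean, Sprr1a changed by 1.29 (SE 0.231), Plet1 by 0.84 (SE 0.186), Anxa1 by 0.22 (SE 0.0703) and Sprr2h by 0.10 (SE 0.083), and none of these slopes passed over all genes (adjusted p = 0.0872, 0.227, 0.518 and 0.899). With control arrays 1 and 3 left out together, 2 of the 5 genes passed, Sprr2h at 1.07 (adjusted p = 0.00528) and Anxa1 at 0.71 (adjusted p = 0.0266), where 7.06% of all genes did. That fit has 1 control array, assumed to vary like the other groups. Against mutant NaCl, whose squamous means overlapped those of mutant tamoxifen, the marker term gave 1.86 for Plet1, 1.34 for Sprr2h and 0.69 for Anxa1, all past the threshold (limma, adjusted p = 0.000566, 4.55e-05 and 0.000619), where 12.5% of all genes rose and 23% passed in either direction. Between mutant NaCl and control tamoxifen none of the 5 passed with this term, and 0.00501% of all genes (1 gene) did.

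Markers of other cell types also differed between the groups. Neutrophil markers, which matter for Anxa1 since neutrophils make it, had mean levels of 7.48 to 7.83 in mutant tamoxifen, 6.82 to 6.96 in mutant NaCl and 6.78 to 7.04 in control tamoxifen, and 10 of 14 rose against control tamoxifen. Smooth muscle markers read 11.33 to 11.48 in mutant tamoxifen, 11.79 to 12.09 in mutant NaCl and 11.93 to 12.07 in control tamoxifen, and 12 of 12 fell against control tamoxifen. Proliferation genes read 10.25 to 10.33, 9.67 to 9.90 and 9.09 to 9.72 in the same order of groups. The part of these cells in the levels of the 5 genes was not tested. Of 13 general epithelial markers such as Epcam, 3 rose and 1 fell against control tamoxifen, with a median of 0.07. All marker counts in this comparison stand beside 12.9% of all genes that rose and 11.8% that fell.

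Clu went with lymphoid markers. In the 10 B and plasma cell markers the mean level was 8.50 to 9.04 in mutant tamoxifen, 7.92 to 9.74 in mutant NaCl and 8.00 to 8.92 in control tamoxifen. The mutant NaCl array with the highest marker mean, 9.74, had the highest Clu level, 11.03, and the one with the lowest, 7.92, had the lowest Clu level of its group, 9.30. Control array 3, with a marker mean of 8.92, read 9.93 for Clu, above 9.28 and 9.15 in the other control arrays, at 8.22 and 8.00. With the marker mean in the model, a term chosen after the values were seen, Clu changed by 0.88 per unit (limma, SE 0.0824, adjusted p = 0.000708). Its SE against mutant NaCl fell to 0.086, and the difference of -0.27 then passed (adjusted p = 0.0469), where 23.6% of all genes did. Against control tamoxifen the difference was -0.08 with this term (SE 0.101, adjusted p = 0.609), where 22.9% of all genes passed.

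The genes whose pattern over the 11 arrays was most like each of the 5 were named by Pearson correlation, as a description, since all groups contribute to it. For Clu they were H2-Eb2, an MHC class II chain (r = 0.988), and Pax5, the B cell transcription factor (r = 0.987). For Sprr1a they were Ppbp, a chemokine known from platelets (r = 0.968), and Psca, a surface protein of the Ly6 superfamily (r = 0.964). For Sprr2h they were Isx, an intestinal homeobox factor (r = 0.984), and Epb41l4a, of the band 4.1 family (r = 0.983). For Plet1 they were Rdh11, a retinal reductase (r = 0.969), and the pentose phosphate enzyme Tkt (r = 0.964). For Anxa1 they were Rbbp7, a histone-binding protein (r = 0.958), and Psat1, of serine synthesis (r = 0.955).

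Other genes of wounded and regenerating epithelium, 27 measured ones in all, moved mostly the same way. Against control tamoxifen 20 rose and 0 fell, where 12.9% of all genes rose and 11.8% fell. Their median difference was 0.56 beside -0.02 over all genes. Against mutant NaCl 19 rose and 0 fell (median 0.48 beside -0.01), where 12.5% of all genes rose and 10.7% fell. Between mutant NaCl and control tamoxifen 0 passed (median 0.00). The 4 with the smallest p were Mmp7, the metalloproteinase matrilysin (difference 2.32, limma, adjusted p = 9.82e-05), the simple keratin gene Krt7 (1.13, adjusted p = 0.000158), the stromelysin gene Mmp10 (1.38, adjusted p = 0.000882) and Emp1, an epithelial membrane protein (0.89, adjusted p = 0.000965). Mmp7 averaged 8.66 in mutant tamoxifen, 6.17 in mutant NaCl and 6.21 in control tamoxifen. With the squamous marker term 17 of the 27 rose against control tamoxifen, where 10.5% of all genes did. With control arrays 1 and 3 left out, which leaves 1 control array, the median difference of the 27 was 0.45. Fewer of the 27 passed in that fit than with all arrays. Some annexin and Ly6 genes, such as Anxa8 and Ly6d, stand both in this list and in their families. The list was put together with earlier results of these data known, so its direction is not independent evidence.

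**Figure D4:**
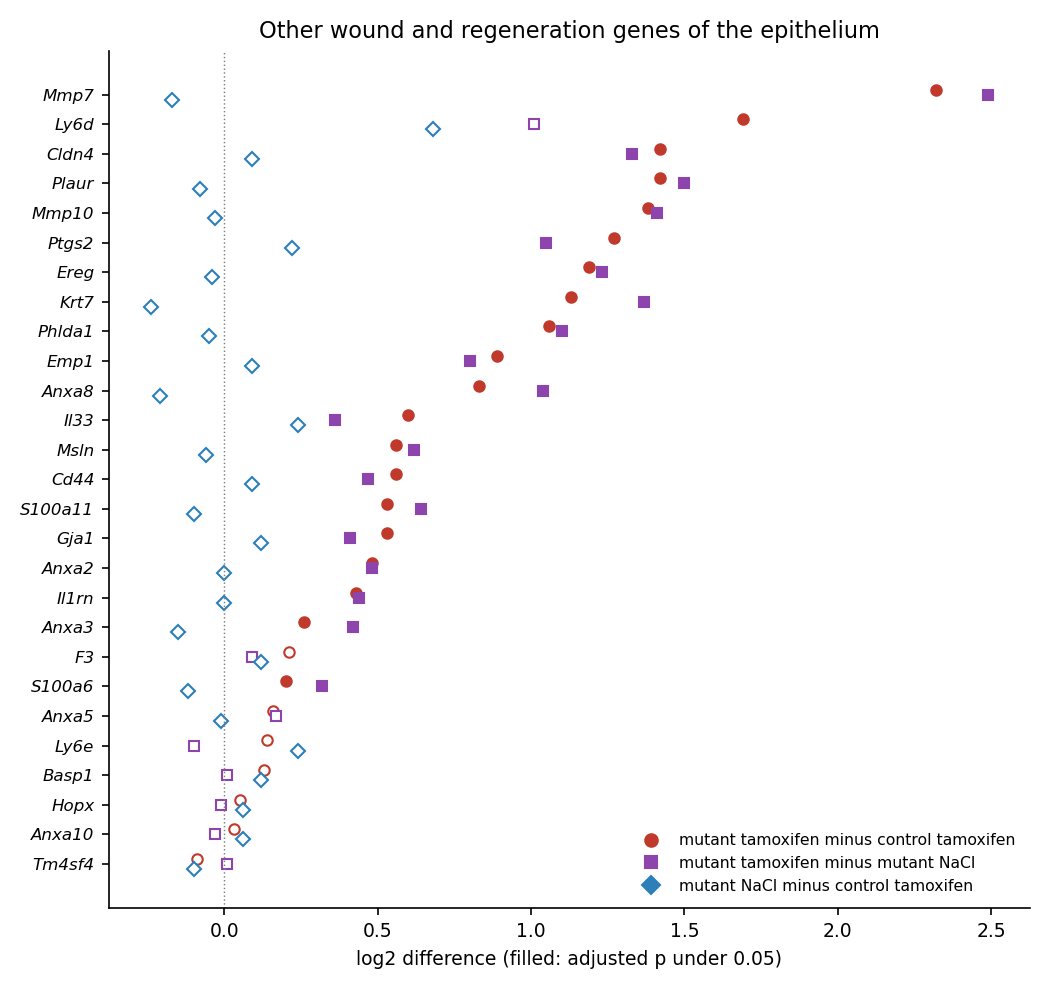
Log2 difference (x axis) of 27 other wound and regeneration genes (rows) in the 3 comparisons, filled where adjusted p is under 0.05. Both comparisons with mutant tamoxifen lie mostly right of 0, led by Mmp7 at 2.32 and 2.49, and the mutant NaCl points scatter around 0.

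Genes often used as targets or partners of YAP and TEAD, factors active in epithelial repair, moved in both directions. Of 16 measured, 4 rose and 3 fell against control tamoxifen (median -0.02, as over all genes), where 12.9% of all genes rose and 11.8% fell, and 5 rose and 2 fell against mutant NaCl, where 12.5% rose and 10.7% fell. The 4 with the smallest p were Crim1, which fell by 0.81 (limma, adjusted p = 0.000337), the survivin gene Birc5, which is also a cell division gene and rose by 0.75 (adjusted p = 0.00225), Wwc1, which rose by 0.40 (adjusted p = 0.0079), and the receptor kinase gene Axl, which fell by 0.39 (adjusted p = 0.00968). Fpr1 and Fpr2, the formyl peptide receptor genes through which annexin A1 is known to act, were not analysed here. Their relatives Fpr-rs3 and Fpr-rs4, known as vomeronasal receptor genes in the mouse, had differences of -0.10 and 0.07, and neither passed (limma, adjusted p = 0.112 and 0.341).

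The gene families are set beside 12.9% of all genes that rose and 11.8% that fell against control tamoxifen, and 12.5% and 10.7% against mutant NaCl. In the Sprr family 4 of 13 measured genes rose against control tamoxifen (median 0.21) and 5 against mutant NaCl. Beside Sprr2h and Sprr1a these were Sprr2b (difference 0.67, limma, adjusted p = 0.000276) and Sprr2k (0.27, adjusted p = 0.00204), for which sharing of signal with Sprr2h was not tested. Sprr1b and Sprr3, which like Sprr1a belong to squamous epithelium, had differences of -0.19 and 0.76 (adjusted p = 0.857 and 0.33). Sprr3 averaged 10.29 in mutant tamoxifen, 10.83 in mutant NaCl and 8.74 in control tamoxifen, and Sprr1b 9.54, 9.82 and 8.81 in the same order, so for Sprr1b the fitted difference, which allows for sex, and the plain means differ in sign. These 2 names were chosen after their values were seen.

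Among 12 annexins 5 rose and 2 fell in both comparisons with mutant tamoxifen. Against control tamoxifen Anxa1 was followed by Anxa2 (0.48, limma, adjusted p = 0.0012), Anxa8 (0.83, adjusted p = 0.00157) and Anxa4 (0.34, adjusted p = 0.00318). With control arrays 1 and 3 left out, 4 rose and 0 fell, where 4.05% of all genes rose. Of the Ly6 family, to which Ly6a belongs, 13 other genes were measured, and 3 rose against control tamoxifen and 0 fell, where 12.9% of all genes rose. They were Ly6f (0.53, limma, adjusted p = 0.00141), Ly6m (1.37, adjusted p = 0.00178) and Ly6d, a gene also made by squamous cells (1.69, adjusted p = 0.0235). Next by p was Ly6g6d, at -0.17, which did not pass (adjusted p = 0.0807). With control arrays 1 and 3 left out, which leaves 1 control array, the median difference of the 13 was 0.10, beside 0.15 with all arrays. Fewer of the 13 passed in that fit. Ly6d averaged 10.44 in mutant tamoxifen, 9.44 in mutant NaCl and 8.47 in control tamoxifen, and against mutant NaCl it did not pass (limma, difference 1.01, adjusted p = 0.10).

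**Figure D5:**
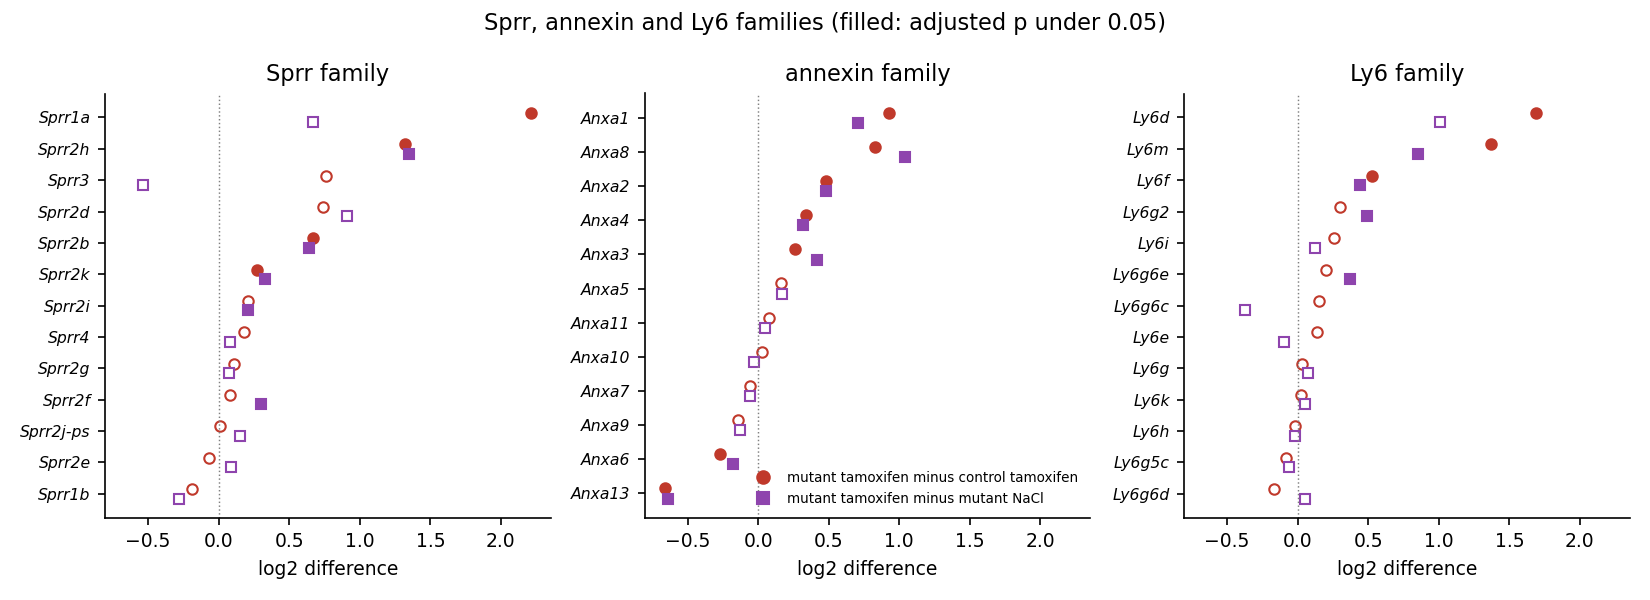
Log2 difference (x axis) of the measured genes of the Sprr, annexin and Ly6 families (rows) for mutant tamoxifen against control tamoxifen (red) and against mutant NaCl (purple), filled where adjusted p is under 0.05. Sprr1a lies apart in the 2 comparisons, at 2.21 and 0.67, and Sprr2h lies at 1.32 and 1.35.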

How the data were processed

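Total RNA of rectal mucosa was hybridised to 1 array per mouse. The authors deposited 1 log2 value per transcript cluster and array, made per the labels with RMA (background correction, quantile normalisation and probe summary). Per the series' design text, images were read with Affymetrix GeneChip Command Console version 2.0 and expression values came from Affymetrix Expression Console version 1.1. Partek is listed in the submitters' processing notes with no role. Of 35556 transcript clusters, 21797 had 1 gene symbol, 1613 had several and 12146 were not named in the platform annotation used here. Symbols were updated with RefSeq gene IDs (2 changed). For 1001 genes with several clusters the one with the highest mean was kept, giving 19944 genes with no filter on dim genes.

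Groups were taken from the labelled genotype and treatment, and replicate numbers given here only identify an array. One model over the 11 arrays (limma 3.58.1, R 4.3.3) held group and sex, with a variance trend. P-values were two-sided and adjusted by the Benjamini-Hochberg method over the whole table, with 0.05 as the threshold. The model was run on simulated data in which each gene had the same spread in every group. That run does not cover unequal spread, as for Sprr1a (SD 1.93 in control tamoxifen and 0.361 in mutant tamoxifen). P-values judge a group difference against the spread between these mice, pooled over the groups, and the number of arrays limits the precision. The 5 genes, the other lists (22) and the naming rules were chosen with earlier results of these data known. The rule named all members, the 2 genes most like each, and at most 4 genes per list by p. Alternatives numbered 25, of which 11 left out 1 array.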

Additional observations from a re-analysis of the deposited data

How the results depend on the processing

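Over 25 alternative settings, Anxa1 and Sprr2h kept their calls in both comparisons with mutant tamoxifen in every setting where they were tested, and Plet1 kept its call against mutant NaCl. Sprr2h is not tested with the lower 50% of genes by mean level left out. Against control tamoxifen the call of Sprr1a was lost in 8 settings and that of Plet1 in 2. In female arrays only, with 1 control array, Sprr1a gave 0.66 and Plet1 1.71, 2 of the genes passed and 1385 of all genes did. With control arrays 1 and 3 left out together, a step added after the data were seen, the values were 0.59 and 1.68, again with 2 genes passing, and 1409 of all genes. Sprr1a was also not past the threshold with robust eBayes (2.21) or with only both groups' arrays (1.95), and without 1 array it ranged from 1.64 to 3.59. The cause was not tested. With 1 array left out, 3 to 4 of the genes and 2517 to 4685 of all genes passed against control tamoxifen, the lowest without mutant tamoxifen array 3, and 3031 passed without control array 2.

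With the B and plasma cell marker term, added later, Clu turned to -0.08 against control tamoxifen and passed at -0.27 against mutant NaCl, and without 1 array it ranged from -0.32 to 0.42 against control tamoxifen. Between mutant NaCl and control tamoxifen, where no gene of the group passed in any setting, directions turned in female arrays for Anxa1 (-0.03), Plet1 (-0.30) and Sprr1a (-0.14), and without control arrays 1 and 3 for Plet1 (-0.27) and Sprr1a (-0.07). Sprr2h gave 0.01 after a second quantile normalisation, 0.00 with the B and plasma cell term and -0.08 to 0.19 without 1 array. There 1 of all genes passed with the lower 50% of genes left out, median centring, second quantile normalisation, array weights or the squamous term, 3 with only both groups' arrays, and 0 to 3 without 1 array. For the male minus female term, directions turned with the squamous term for Plet1 (0.92) and Sprr1a (0.70) and without control arrays 1 and 3 for Plet1 (0.29), and without 1 array the ranges were -0.59 to 0.29 for Plet1, -0.60 to 0.16 for Clu and -0.07 to 0.21 for Sprr2h. No paired analysis was possible because the labels give no replicate numbers shared between groups. Signal over background is not in the deposited values, so dim genes such as Sprr2h have no stated floor.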

Other observations

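Other cell type markers were followed in the same model, since the genes described can be made by several cell types. In mutant tamoxifen against control tamoxifen, 2 of 15 markers of mature colonocytes rose and 8 fell (median log2 difference -0.32 beside -0.02 over all genes). Of 10 goblet cell markers 5 rose and 2 fell (median 0.23), of 11 stem cell markers 2 rose and 3 fell (median 0.07), and of 10 M cell markers 3 rose and 0 fell (median 0.11). All 17 proliferation genes rose (median 0.84), where 12.9% of all genes did. Against mutant NaCl 13 of them rose (median 0.51), where 12.5% of all genes did.

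Outside the epithelium, 0 of 14 macrophage and dendritic cell markers rose and 4 fell, 0 of 12 T and NK cell markers rose and 1 fell, and 0 of 10 B and plasma cell markers passed. Of 12 endothelial markers 0 rose and 1 fell, of 12 fibroblast markers 2 rose and 0 fell, of 9 neuron and glia markers 0 rose and 4 fell, and of 7 mesothelium markers 2 rose and 0 fell. Of the 2 mesothelium markers that rose, Msln (0.56) also stands among the regeneration genes and Krt19 (0.16) among the general epithelial markers. Between mutant NaCl and control tamoxifen 0 genes of these lists passed (limma). These counts stand beside 12.9% of all genes that rose and 11.8% that fell against control tamoxifen, and their part in the levels of the 5 genes was not tested.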
